A study of Rattus norvegicus with 8 samples.

Results

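The genes described here are 10 members of the Hippo pathway and its output: Yap1, Wwtr1, Tead1, Tead3, Vgll3, Lats1, Lats2, Amotl1, Amotl2 and Ankrd1. Each symbol matched 1 row, so that they make up 10 of the 31699 rows of the table. The samples were AFCs (annulus fibrosus cells), isolated from the fibrous outer ring of the intervertebral disc of Sprague Dawley rats, cultured to the third passage and exposed to CMS (cyclic mechanical stretch) of 20% elongation at 0.5 Hz for 36 h. RNA-seq was performed on 4 samples labelled Lv-Ctrl, infected with the lentiviral vector pLVX-shRNA-Puro, and on 4 samples labelled Lv-Piezo1, infected with pLVX-shRNA-Puro-Piezo1, which carries a short hairpin RNA against the mechanosensitive ion channel Piezo1. Infection lasted 24 h at an MOI (multiplicity of infection) of 20. All samples were stretched and all carried a lentivirus, and no unstretched sample was analysed here, so the comparison is between the 2 viruses under stretch and not between stretch and rest. Each isolation pooled the tissue of 8 rats. The study describes 4 biological repeats, while the labels do not say which samples came from separate isolations, so that p-values measure the spread between these cultures.

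The Hippo pathway is a kinase cascade that holds the transcriptional coactivators YAP (gene Yap1) and TAZ (gene Wwtr1) out of the nucleus. The kinases LATS1 and LATS2 phosphorylate YAP and TAZ, angiomotin proteins bind them at cell junctions and actin filaments, and coactivators that escape this control enter the nucleus and act through the DNA-binding TEAD proteins. Spread, stretched or tense cells are known to keep more YAP and TAZ in the nucleus, and fibroblasts of load-bearing tissues such as tendon and disc are among the cells in which this has been studied. Control of YAP and TAZ acts largely through phosphorylation, location and protein breakdown, none of which a transcript level shows.

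Values are TPM, a transcript level corrected for transcript length and for the total of its sample, so that genes can be compared with each other. The number of reads behind a sample cannot be read from it. Between 16645 and 17022 rows lay above 0 under the Lv-Ctrl label and between 17191 and 17657 under the Lv-Piezo1 label. Differences were tested with limma on log2(TPM + 1) over the 13103 genes whose mean reached 1 TPM. Adding 1 makes the changes of low genes look smaller. Fold changes are given as samples labelled Lv-Piezo1 against samples labelled Lv-Ctrl. A gene is said to have risen or fallen at a Benjamini-Hochberg adjusted p below 0.05 over all tested genes, and to be called differentially expressed when the log2 fold change was also at least 1 in size.

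The targeted transcript went against its label. Piezo1 (ENSRNOG00000056786) measured 31.1, 33.0, 26.7 and 29.5 TPM with the Lv-Ctrl label (replicates 1 to 4) and 38.1, 37.7, 40.2 and 41.4 TPM with the Lv-Piezo1 label. The lowest Lv-Piezo1 value exceeded the highest Lv-Ctrl value, with a log2 fold change of 0.38 (limma, adjusted p = 0.000857). After median-ratio scaling, which sets the typical gene equal between samples, the fold change was 0.21 (limma, adjusted p = 0.00364). After quantile normalization the fold change was 0.26 (limma, adjusted p = 0.00308). The direction of every difference below is therefore that of the labels and not that of a measured loss of Piezo1 transcript. The study itself reports that the short hairpin RNA against Piezo1 was checked and found effective.

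The labelled cell type was checked against marker genes. Of 13 markers of annulus fibrosus and tendon-like fibroblasts, 12 were tested, and the summed level of all 13 was between 11851 and 13452 TPM under the Lv-Ctrl label and between 15461 and 16575 TPM under the Lv-Piezo1 label. The most abundant was Col1a1, a chain of type I collagen, at 3282 ± 137 and 5835 ± 103 TPM (SD, n = 4 each). The sum hides opposite changes: 7 of the tested markers rose and 4 fell, beside 41.9% and 16.3% of all tested genes. The only 2 markers called were lower. These were Col12a1, a collagen of dense connective tissue, from 1560.3 ± 203 to 517 ± 39.6 TPM, and the proteoglycan gene Dcn, from 1456 ± 69.3 to 519 ± 14.9 TPM (SD, n = 4 each), with log2 fold changes of -1.59 and -1.49. Tnmd, a marker of mature tendon and ligament cells, was below 1 TPM in every sample. Of 7 chondrocyte-like markers, 5 were tested, 2 rose and 2 fell. Acan, the large proteoglycan of cartilage and disc, was the most abundant and rose from 31.6 ± 2.95 to 47.1 ± 1.82 TPM (SD, n = 4 each; log2 fold change 0.57). Comp was called higher (1.16, but 0.93 after quantile normalization, below the fold threshold) and Cilp lower (-1.64), while Col2a1 and Matn3 were below 1 TPM in every sample. Of the notochordal and nucleus pulposus markers, Tbxt was listed at 0 in all samples, and the most abundant was Cdh2 at 2.98 ± 0.325 and 4.61 ± 0.512 TPM (SD, n = 4 each). All 8 endothelial markers and the 4 epithelial markers analysed were below 1 TPM in every sample.

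The groups differed in markers of smooth muscle and pericytes. All 10 smooth muscle markers rose in the samples labelled Lv-Piezo1 (9 after median-ratio scaling of the samples, which sets the typical gene equal between samples). Among them 8 were called higher, beside 4.91% of all tested genes. The summed level of the 10 was between 439 and 454 TPM under the Lv-Ctrl label and between 4613 and 4785 TPM under the Lv-Piezo1 label. The most abundant was Tagln, which encodes the actin-binding protein transgelin, at 219 ± 4.64 and 2730.2 ± 41.2 TPM (SD, n = 4 each), and none of the 10 was at 0. Of 11 skeletal and cardiac muscle markers, 2 were tested and neither passed in limma, with 0 at an unadjusted p below 0.05, and 8 were below 1 TPM in every sample. Replicate 2 labelled Lv-Ctrl stood apart in this panel, with a sum of 36.1 TPM against 3 to 4.15 TPM in the rest of its group and 10.2 to 13.1 TPM under the Lv-Piezo1 label. Of 5 tested pericyte markers, 3 rose (2 after that scaling) and 2 fell, and the pericyte sum was between 520 and 561 TPM against 276 to 293 TPM. Over all samples Kcnj8 was the most abundant of these markers. Rgs5 was below 1 TPM in every sample, and Higd1b was not analysed here. The called genes went both ways: the potassium channel gene Kcnj8, from 326 ± 5.61 to 39.1 ± 2.61 TPM, and Abcc9 were lower, and Mcam, which encodes an adhesion molecule, was higher, from 7.17 ± 0.226 to 62.2 ± 2.29 TPM (SD, n = 4 each). Of the macrophage markers, Cd14 was the most abundant at 20.9 ± 0.324 and 25.8 ± 1.91 TPM (SD, n = 4 each), and its rise (log2 fold change 0.29) no longer passed after median-ratio scaling or quantile normalization. Cd68 rose from 0.955 ± 0.899 to 12.3 ± 0.901 TPM (SD, n = 4 each), while Adgre1, C1qa and C1qb were listed at 0 in all samples and Ptprc stayed below 1 TPM. These marker differences run along the same groups as every result below, and their part in those results was not tested. The samples are bulk cultures, in which more cells of a type and more RNA per cell cannot be told apart.

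A general shift and single samples bear on every small difference. The median log2 fold change of all tested genes was 0.14, and it was -0.02 after median-ratio scaling. Without a fold change threshold, 72.0% of the genes that passed were higher in the samples labelled Lv-Piezo1, against 47.8% with that scaling and 51.2% when quantile normalization was used. With the threshold, these shares were 64.1%, 51.4% and 48.8%. Replicate 3 labelled Lv-Ctrl stood apart from its group. It held the lowest value of its group in 48.5% of tested genes, against 14.5% to 19.8% for the other samples labelled Lv-Ctrl, and in 8 of the 9 tested members. Replicate 2 labelled Lv-Ctrl was the highest of its group in 8 of the 9, and replicate 4 labelled Lv-Piezo1 in 9 of the 9. Results that rest on replicate 3 labelled Lv-Ctrl are given with and without it.

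Of the 10 genes, 9 passed the filter on low TPM. None of the 9 was called in limma, where 4.91% of all tested genes were called higher, 2.76% lower and 7.67% in either direction, and 4 of the 9 had an unadjusted p below 0.05. At an adjusted p below 0.05 without the fold threshold, 4 rose (Tead1, Tead3, Amotl1 and Amotl2) and none fell. Of all tested genes, 41.9% rose and 16.3% fell. After median-ratio scaling 3 members were higher and 2 lower, beside 3499 and 3822 of all tested genes. After quantile normalization 3 were also higher and 2 lower, beside 3757 and 3579 of all tested genes. The groups did not overlap in 3 of the 9 genes, all of them higher in the samples labelled Lv-Piezo1, beside 39.8% of tested genes that lay higher without overlap and 14.5% that lay lower. These counts are near the background of the comparison. The median log2 fold change of the 9 genes was 0.14, equal to that of all tested genes at this precision. On the deposited values, the TEAD genes and angiomotins among the members were higher, and the coactivators, the LATS kinases and Vgll3 did not pass. After median-ratio scaling or quantile normalization Amotl1 no longer passed, while Wwtr1 and Lats2 passed as lower. Whether these groups of members differ from each other was not tested.

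**Figure D1:**
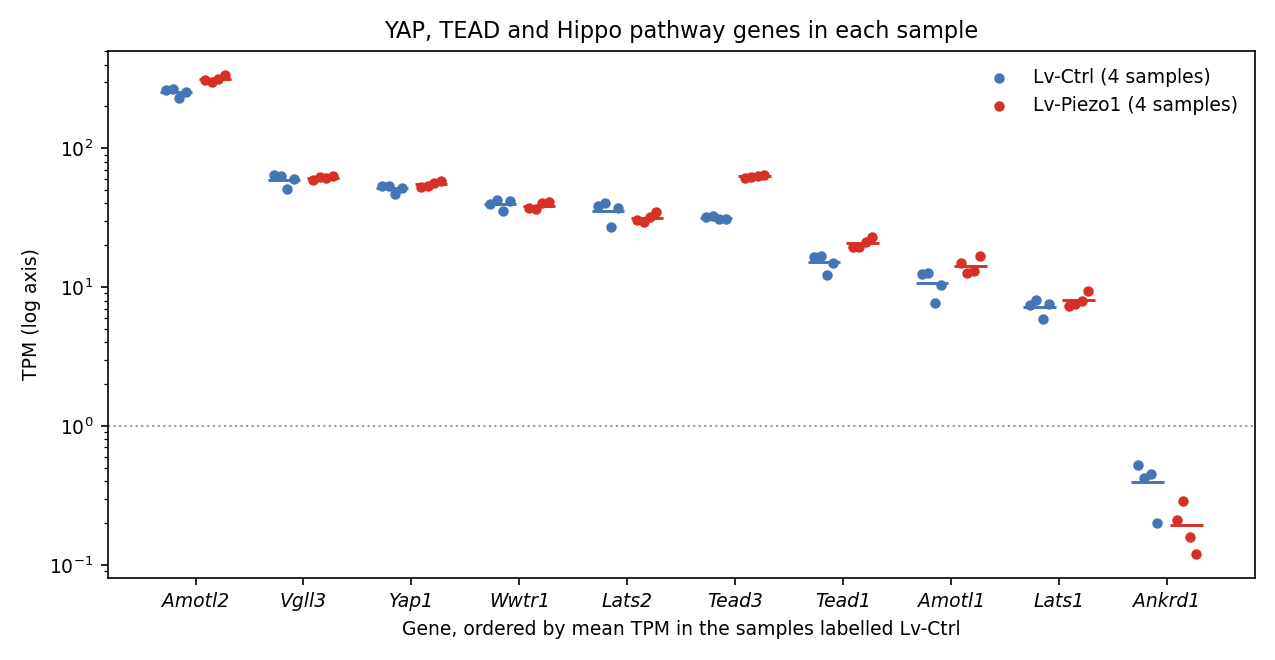
TPM of the 10 genes on a log axis in each of the 8 samples, with a point per sample in the order of replicates 1 to 4, a horizontal bar at the group mean, and a dotted line at 1 TPM. Tead3 is the gene whose groups lie farthest apart among those above 1 TPM, near 31.7 TPM under the Lv-Ctrl label and 62.6 TPM under the Lv-Piezo1 label, and Ankrd1 is the gene below the line.

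The levels of the 10 genes covered a wide range. In the samples labelled Lv-Ctrl, Amotl2 was the most abundant at 253 ± 16.6 TPM (SD, n = 4), which put its mean over all samples above 96.1% of tested genes. Vgll3 and Yap1 followed with ranges that overlapped, then Wwtr1, Lats2 and Tead3, whose neighbouring ranges also overlapped, then Tead1, Amotl1 and Lats1, again with overlapping neighbours, and last Ankrd1. In the samples labelled Lv-Piezo1 the order was Amotl2, Tead3, Vgll3, Yap1, Wwtr1, Lats2, Tead1, Amotl1, Lats1 and Ankrd1, and the only neighbours whose ranges overlapped were Tead3 and Vgll3. Tead3 thus moved from rank 6 to rank 2, Vgll3, Yap1, Wwtr1 and Lats2 each moved down a rank, and the other genes kept theirs.

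Yap1 and Wwtr1, the coactivators themselves, were expressed at similar levels in both groups. Yap1 (ENSRNOG00000005933) measured 53.1, 53.8, 47.0 and 51.3 TPM with the Lv-Ctrl label (replicates 1 to 4) and 52.8, 53.1, 56.0 and 58.3 TPM with the Lv-Piezo1 label. The groups overlapped, and the log2 fold change was 0.10 (95% interval -0.02 to 0.22; limma, adjusted p = 0.131) on the deposited values and -0.08 after median-ratio scaling. Wwtr1 (ENSRNOG00000016617) measured 39.6, 42.5, 35.5 and 41.7 TPM under Lv-Ctrl labels and 37.1, 36.2, 40.2 and 40.8 TPM under Lv-Piezo1 labels. These groups overlapped as well, with a log2 fold change of -0.04 (95% interval -0.19 to 0.10; limma, adjusted p = 0.598). After median-ratio scaling Wwtr1 passed the test, with a log2 fold change of -0.22 (limma, adjusted p = 0.00411), and it did so after quantile normalization at -0.16.

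The balance between the coactivators does not depend on the scaling of a sample. The ratio of Wwtr1 to Yap1 was 0.776 ± 0.0313 under the Lv-Ctrl label and 0.701 ± 0.0145 under the Lv-Piezo1 label (SD, n = 4 each). The groups did not overlap (exact permutation test, p = 0.0286, which is the floor of this test for groups of 4, and 0.0286 after adjustment over the 3 ratios tested), and without replicate 2 labelled Lv-Piezo1 they still did not, but the exact permutation p was 0.0571. Yap1 therefore made up 56.3 ± 0.988% of the summed TPM of both coactivators under Lv-Ctrl labels and 58.8 ± 0.503% under Lv-Piezo1 labels (SD, n = 4 each). The sum itself was 91.1 ± 5.98 and 93.6 ± 4.79 TPM (SD, n = 4 each), with overlapping samples. Among single tested genes, 39.8% lay higher and 14.5% lower without overlap. How often ratios of other gene pairs separate the groups was not tested, for any of the 3 ratios.

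The TEAD genes, which encode the DNA-binding partners of YAP and TAZ, were higher in the samples labelled Lv-Piezo1. Tead3 (ENSRNOG00000000506) measured 32.1, 32.7, 31.1 and 30.9 TPM with the Lv-Ctrl label (replicates 1 to 4) and 61.1, 62.3, 63.1 and 63.7 TPM with the Lv-Piezo1 label. The samples of each group lay within a few TPM of each other and the groups far apart. The mean was 1.97 times as high under Lv-Piezo1 labels, and the log2 fold change of 0.96 (standard error 0.0339; 95% interval 0.88 to 1.04; limma, adjusted p = 3.92e-08) lay just under the fold threshold. It was 0.78 after median-ratio scaling and 0.95 without replicate 3 labelled Lv-Ctrl.

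Tead1 (ENSRNOG00000015488) rose by less. It measured 16.4, 16.9, 12.3 and 14.9 TPM with the Lv-Ctrl label (replicates 1 to 4) and 19.3, 19.5, 21.3 and 23.1 TPM with the Lv-Piezo1 label. The lowest Lv-Piezo1 value exceeded the highest Lv-Ctrl value, and replicate 3 labelled Lv-Ctrl was the lowest. The log2 fold change was 0.44 (standard error 0.0983; limma, adjusted p = 0.00401), 0.35 without that replicate and 0.27 after median-ratio scaling. The ratio of Tead3 to Tead1 was 2.12 ± 0.276 and 3.02 ± 0.2 (SD, n = 4 each), again without overlap (exact permutation test, p = 0.0286, and 0.0286 after adjustment over the 3 ratios). Without any 1 of the samples labelled Lv-Piezo1 the groups still did not overlap, but the exact permutation p was 0.0571.

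The other TEAD genes, outside the 10 but of the same family, moved the same way. Tead2 measured 8.09, 7.01, 6.16 and 7.17 TPM under Lv-Ctrl labels and 14.1, 15.5, 13.0 and 13.8 TPM under Lv-Piezo1 labels, with a log2 fold change of 0.90 (limma, adjusted p = 1.73e-05). Tead4 was the least abundant at 1.19 ± 0.275 and 1.97 ± 0.381 TPM (SD, n = 4 each), its groups overlapped, and its log2 fold change was 0.44 (limma, adjusted p = 0.0234) but 0.33 after median-ratio scaling, where it no longer passed (limma, adjusted p = 0.0638). The summed TPM of the 4 TEAD genes was 55.1 ± 3.59 under the Lv-Ctrl label and 99.4 ± 2.14 under the Lv-Piezo1 label (SD, n = 4 each). Tead3 held 57.7 ± 2.73% of this sum under Lv-Ctrl labels and 62.9 ± 0.391% under Lv-Piezo1 labels, and the share of Tead1 was 27.3 ± 2.09% and 20.9 ± 1.37% (SD, n = 4 each). Set against the coactivators, the TEAD sum was 0.605 ± 0.0204 times the sum of Yap1 and Wwtr1 under Lv-Ctrl labels and 1.06 ± 0.0384 times that sum under Lv-Piezo1 labels (SD, n = 4 each), a ratio that does not depend on scaling.

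Vestigial-like proteins bind TEADs at the surface that YAP and TAZ use, and VGLL4 is known as a repressor that competes with YAP. Vgll3 (ENSRNOG00000028774) measured 64.3, 63.1, 50.6 and 59.9 TPM with the Lv-Ctrl label (replicates 1 to 4) and 59.4, 62.0, 61.3 and 62.8 TPM with the Lv-Piezo1 label. Replicate 3 labelled Lv-Ctrl was the lowest and the groups overlapped. The log2 fold change was 0.05 (95% interval -0.11 to 0.21; limma, adjusted p = 0.568), -0.02 without that replicate and -0.13 after median-ratio scaling.

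Its relatives Vgll2 and Vgll4 fell. Vgll2 measured 6.39, 6.40, 7.21 and 4.93 TPM with the Lv-Ctrl label (replicates 1 to 4) and 1.49, 1.4, 1.97 and 1.96 TPM with the Lv-Piezo1 label. With a log2 fold change of -1.42 (standard error 0.123; limma, adjusted p = 1.22e-05) it was the only gene called in the list of YAP, TAZ, TEAD and their cofactors. Vgll4 went from 37.1 ± 2.41 to 31.2 ± 2.50 TPM (SD, n = 4 each), with a log2 fold change of -0.24 (limma, adjusted p = 0.0108) and overlapping groups. Vgll3 was the most abundant of these genes. The summed TPM of Vgll2, Vgll3 and Vgll4 was 103 ± 8.2 and 94.3 ± 3.78 (SD, n = 4 each), while the share of Vgll3 in it was 57.7 ± 1.66% and 65.1 ± 1.5%.

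**Figure D2:**
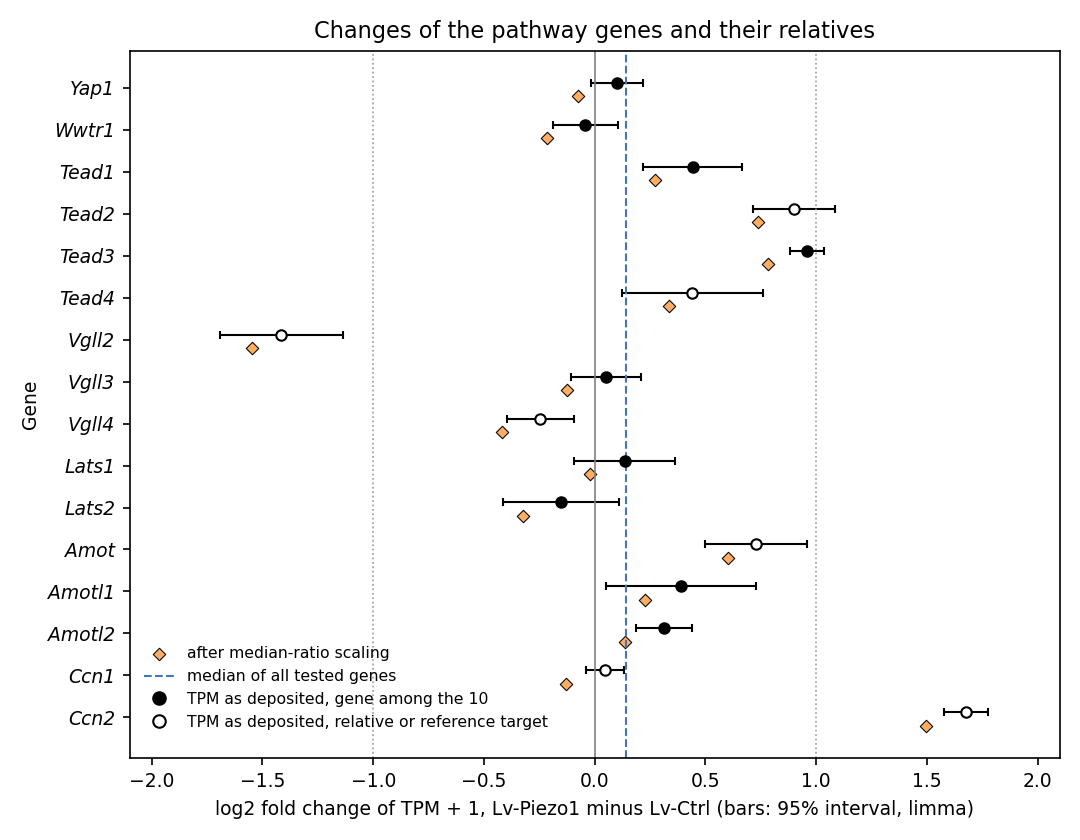
log2 fold change of TPM + 1 (Lv-Piezo1 minus Lv-Ctrl labels, 4 samples each) for 9 of the 10 genes (filled circles) and for their relatives and the reference targets Ccn1 and Ccn2 (open circles), with 95% intervals from limma. Diamonds give the value after median-ratio scaling, the dashed line the median of all tested genes (0.14) and the dotted lines the fold threshold. Tead1, Tead2, Tead3 and Tead4 lie right of the dashed line in both sets of values, Yap1, Lats1, Vgll3 and Ccn1 lie right of 0 as deposited and left of it after scaling, and Ccn2 and Vgll2 lie beyond the threshold.

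The LATS kinases, which phosphorylate YAP and TAZ, did not pass the test on the deposited values. Lats1 (ENSRNOG00000014916) measured 7.45, 8.02, 5.92 and 7.59 TPM with the Lv-Ctrl label (replicates 1 to 4) and 7.35, 7.52, 7.96 and 9.35 TPM with the Lv-Piezo1 label. Its groups overlapped, with a log2 fold change of 0.14 (95% interval -0.09 to 0.36; limma, adjusted p = 0.280) that was -0.02 after median-ratio scaling.

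Lats2, itself a known target gene of YAP and so part of a feedback loop, was several times as abundant as Lats1. Lats2 (ENSRNOG00000056343) measured 38.4, 40.0, 27.0 and 36.9 TPM with the Lv-Ctrl label (replicates 1 to 4) and 30.5, 29.5, 31.7 and 34.9 TPM with the Lv-Piezo1 label. Replicates 1, 2 and 4 labelled Lv-Ctrl lay above all samples labelled Lv-Piezo1 and replicate 3 lay below them. The log2 fold change was -0.15 (95% interval -0.41 to 0.11; limma, adjusted p = 0.294) with that replicate and -0.28 (limma, adjusted p = 0.00514) without it, and it was -0.32 (limma, adjusted p = 0.0160) after median-ratio scaling. The ratio of Lats2 to Lats1 within a sample was 4.89 ± 0.256 under the Lv-Ctrl label and 3.95 ± 0.174 under the Lv-Piezo1 label (SD, n = 4 each). In this ratio replicate 3 labelled Lv-Ctrl, at 4.55, lay on the side of its group, and the groups did not overlap (exact permutation test, p = 0.0286, and 0.0286 after adjustment over the 3 ratios).

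The angiomotins bind YAP and TAZ and also activate LATS kinases. Amotl2 (ENSRNOG00000008487), the most abundant of the 10 genes and a known YAP target, measured 261, 268, 229.7 and 253 TPM with the Lv-Ctrl label (replicates 1 to 4) and 308, 298, 315 and 338 TPM with the Lv-Piezo1 label. The groups did not overlap. The log2 fold change was 0.31 (standard error 0.0556; limma, adjusted p = 0.00108), 0.27 without replicate 3 labelled Lv-Ctrl and 0.14 (limma, adjusted p = 0.0114) after median-ratio scaling.

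Amotl1 (ENSRNOG00000008990) measured 12.5, 12.6, 7.69 and 10.4 TPM with the Lv-Ctrl label (replicates 1 to 4) and 14.8, 12.5, 13.1 and 16.8 TPM with the Lv-Piezo1 label. Its groups overlapped at replicate 2 of each label. The log2 fold change of 0.39 passed the test narrowly (limma, adjusted p = 0.0484), and it no longer passed without replicate 3 labelled Lv-Ctrl (0.25; limma, adjusted p = 0.0799) or after median-ratio scaling (0.23; limma, adjusted p = 0.169). Leaving out 1 sample at a time, it no longer passed in 6 of 8 cases. Amot, the founding member of the family, was the least abundant and rose from 1.80 ± 0.318 to 3.62 ± 0.162 TPM (SD, n = 4 each; log2 fold change 0.73; limma, adjusted p = 0.00026). The summed TPM of the 3 genes was 266 ± 19.1 and 333 ± 19.0 (SD, n = 4 each), of which Amotl2 held 95.3 ± 0.660% and 94.6 ± 0.342%.

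Ankrd1, a cardiac and muscle ankyrin repeat protein widely used as a readout of YAP activity, was close to undetected in these cells. Ankrd1 (ENSRNOG00000018598) measured 0.52, 0.42, 0.45 and 0.20 TPM with the Lv-Ctrl label (replicates 1 to 4) and 0.21, 0.29, 0.16 and 0.12 TPM with the Lv-Piezo1 label. Replicate 4 labelled Lv-Ctrl lay among the samples labelled Lv-Piezo1, so the groups overlapped (exact permutation test, p = 0.0857). The gene was below the filter, and in a fit of all 20242 genes with a TPM above 0 in a sample its log2 fold change was -0.22 (limma, adjusted p = 0.0555). Its relatives Ankrd2 and Ankrd23 and its partner titin (Ttn) were likewise below 1 TPM in every sample. Ankrd23 went the other way from Ankrd1, from 0.403 ± 0.119 to 0.738 ± 0.0386 TPM (SD, n = 4 each), without overlap of the groups (exact permutation test, p = 0.0286). In the fit of all 20242 genes its log2 fold change was 0.31 (limma, adjusted p = 0.00572). Of its other partners, Ybx1 rose from 377 ± 6.25 to 480 ± 19.7 TPM and Casq2, a calcium-binding protein of the muscle calcium store, from 4.46 ± 0.568 to 24.1 ± 0.532 TPM (SD, n = 4 each), with log2 fold changes of 0.35 and 2.21 (limma, adjusted p = 3.02e-05 and 2.86e-08).

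The reference targets Ccn1 and Ccn2, which encode the secreted matricellular proteins CYR61 and CTGF, were abundant and differed from each other. Ccn1 measured 1994, 1969.7, 1805 and 1890.1 TPM with the Lv-Ctrl label (replicates 1 to 4) and 1979.9, 1922, 1967 and 2048 TPM with the Lv-Piezo1 label, with overlapping groups. Its log2 fold change was 0.05 (95% interval -0.04 to 0.13; limma, adjusted p = 0.302), and it passed in opposite directions under the alternatives, at -0.13 after median-ratio scaling (limma, adjusted p = 0.00412) and at 0.12 after quantile normalization (limma, adjusted p = 0.046). The direction of Ccn1 therefore depends on the scaling. Ccn2 measured 1488, 1522, 1323 and 1441 TPM with the Lv-Ctrl label (replicates 1 to 4) and 4659, 4468, 4655 and 4661 TPM with the Lv-Piezo1 label. Its mean was 3.19 times as high under Lv-Piezo1 labels, with a log2 fold change of 1.68 (standard error 0.0444; limma, adjusted p = 7.28e-09) that was 1.5 after median-ratio scaling.

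Across the list of 22 conserved YAP and TAZ targets, 21 genes were tested. At an adjusted p below 0.05, 13 rose, 3 fell and 5 did not pass, beside 41.9% higher and 16.3% lower of all tested genes. With the fold threshold 3 targets were called higher and 1 lower, beside 4.91% and 2.76% of all tested genes. The genes called higher were Ccn2, Ccdc80 and Tgfb2. Ccdc80, which encodes a matrix-associated protein, rose from 312 ± 9.76 to 1305 ± 29.7 TPM (SD, n = 4 each; log2 fold change 2.06). Tgfb2, which encodes the growth factor TGF-beta 2, rose from 14.2 ± 1.34 to 30.3 ± 1.35 TPM (SD, n = 4 each), but its log2 fold change of 1.05 fell below the fold threshold after median-ratio scaling (0.88) and without replicate 3 labelled Lv-Ctrl (0.99).

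The gene called lower was Igfbp3, an insulin-like growth factor binding protein, from 94.5 ± 1.85 to 31.0 ± 0.927 TPM (SD, n = 4 each; log2 fold change -1.58). Nt5e and Foxf2 also fell, with log2 fold changes of -0.73 and -0.16, and are named here after their values had been seen. The median log2 fold change of the tested targets was 0.31, beside 0.14 for all tested genes, and after median-ratio scaling it was 0.14 beside -0.02, with 10 higher and 7 lower at an adjusted p below 0.05. The targets went in both directions, as did all tested genes. Among the members on this list, on the deposited values, Amotl2 rose, Lats2 did not pass and Ankrd1 was below the filter.

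The upstream layers of the pathway lay near the general shift. Of 35 core kinases and scaffolds, 31 were tested and none was called in limma, beside 7.67% of all tested genes. An unadjusted p below 0.05 was reached by 12. At an adjusted p below 0.05, 11 rose and 1 fell, beside 41.9% and 16.3% of all tested genes. The gene that fell was Taok1, a kinase that activates the cascade, at a log2 fold change of -0.46 and named after its value had been seen. The groups of Taok1 overlapped, with replicate 3 labelled Lv-Ctrl (8.41 TPM) below replicate 4 labelled Lv-Piezo1 (9.32 TPM). Taok1 no longer passed without replicate 1 labelled Lv-Ctrl or without replicate 3 labelled Lv-Piezo1. Leaving out replicate 3 labelled Lv-Ctrl gave a log2 fold change of -0.60 (limma, adjusted p = 0.000622). Median-ratio scaling gave -0.62 (limma, adjusted p = 0.00187) and quantile normalization -0.65 (limma, adjusted p = 0.00128). The median log2 fold change of this list was 0.09, beside 0.14 for all tested genes, and after median-ratio scaling 5 were higher and 10 lower. The most abundant was Stk25, a kinase that binds the pathway's phosphatase complex, at 90.3 ± 3.25 and 108 ± 1.72 TPM, followed by Frmd6 at 64.1 ± 4.69 and 65.5 ± 5.03 TPM and Taok2 at 52.2 ± 3.60 and 54.5 ± 0.635 TPM (SD, n = 4 each). Stk25 rose (log2 fold change 0.26; limma, adjusted p = 0.00016), and it no longer passed after median-ratio scaling.

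Of 42 polarity, junction and cytoskeletal regulators, 34 were tested. At an adjusted p below 0.05, 19 rose and 2 fell, beside 41.9% and 16.3% of all tested genes. The genes that fell were Fat4, a large cadherin of planar polarity, and Ctnna1, which encodes the catenin that links cadherins to actin, with log2 fold changes of -0.58 and -0.27, both named after their values had been seen. The most abundant besides Amotl2 were the 14-3-3 genes Ywhae, at 552 ± 27.2 and 588 ± 39.8 TPM, and Ywhaz, at 265 ± 16.7 and 244 ± 13.9 TPM (SD, n = 4 each), whose proteins hold phosphorylated YAP in the cytoplasm, and neither passed on the deposited values. Ywhaz, at a log2 fold change of -0.12, passed at -0.30 after median-ratio scaling (limma, adjusted p = 0.00014) and at -0.16 without replicate 3 labelled Lv-Ctrl (limma, adjusted p = 0.0207), but not after quantile normalization. The median of this list was 0.23, and after median-ratio scaling 11 were higher and 9 lower.

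In the list of YAP, TAZ, TEAD and cofactors, 15 of 16 genes were tested and Vgll1 was not analysed here. Here 7 rose and 2 fell at an adjusted p below 0.05, beside 41.9% and 16.3% of all tested genes. The median log2 fold change of the list was 0.19, and after median-ratio scaling 6 were higher and 3 lower. The abundant genes of this list were Vgll3, Yap1 and Tead3, all described above.

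SRF and its coactivators of the MRTF family form the other main route from actin tension to transcription, and they share targets with YAP. The list holds the factor genes Srf, Mrtfa, Mrtfb and Myocd beside genes such as Actb, Flna, Myl9 and Vcl. Its counts are therefore not those of the factors alone. All 15 genes were tested, and 14 rose at an adjusted p below 0.05, beside 41.9% of all tested genes. With the fold threshold 6 were called higher and none lower, beside 4.91% and 2.76% of all tested genes. The gene that did not pass was Mrtfb, at 1.76 ± 0.643 and 1.94 ± 0.271 TPM (SD, n = 4 each). The genes called were Myl9, Vcl, Filip1l, Fhl1, Flna and Myocd, of which Myocd was below the fold threshold after quantile normalization (0.92). Among them were Myl9, a myosin light chain, which rose from 119 ± 3.43 to 555 ± 27.1 TPM, Vcl (vinculin, which anchors actin at adhesions), from 86.7 ± 7.53 to 368 ± 21.4 TPM, and Filip1l, from 6.11 ± 0.799 to 16.2 ± 1.47 TPM (SD, n = 4 each). Their log2 fold changes were 2.21, 2.08 and 1.28 (limma, adjusted p = 7.85e-10, 2.25e-08 and 4.77e-06). The median of the list was 0.71, beside 0.14 for all tested genes, and 0.53 beside -0.02 after median-ratio scaling, with 13 higher and none lower. Myocd of this list is also among the smooth muscle markers, whose rise stands beside these values and whose part in them was not tested.

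**Figure D3:**
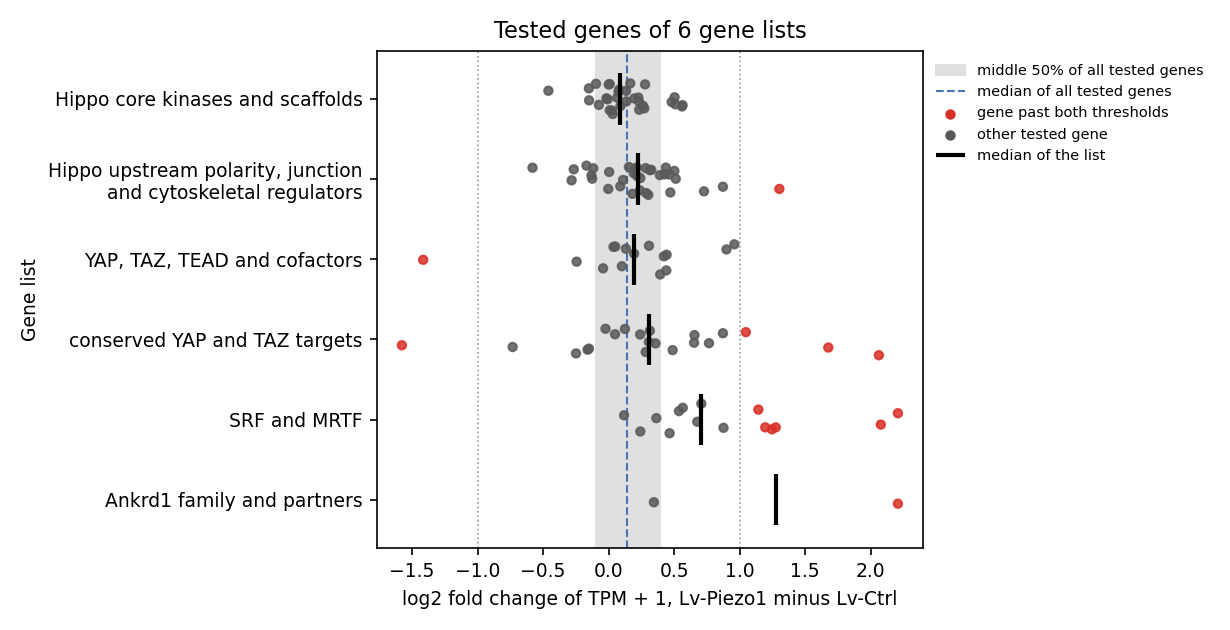
log2 fold change of TPM + 1 (Lv-Piezo1 minus Lv-Ctrl labels, 4 samples each) for each tested gene of the 6 lists, with the median of each list as a black bar, the median of all tested genes (0.14) as a dashed line and their middle 50% in grey. The medians of the Hippo core (0.09) and upstream lists (0.23) lie near the dashed line, and the SRF and MRTF list (0.71) lies to the right of it, with 6 genes past both thresholds in red.

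The promoters were searched for CATTCC, the core of the sequence that TEAD proteins bind, and its reverse complement GGAATG, in the 250 bases before the start of each gene in RefSeq (build GRCr8). Of the 10 genes, 7 were searched, with 12 windows in all, and 3 held the motif: Yap1 (116 bases before the start), Amotl2 (76 bases before it) and Vgll3 (63 bases before it, in 1 of its windows). Wwtr1, Tead3, Lats1 and Amotl1 held none in these windows. Of all 33469 windows of this length, 12.1% held at least 1 copy. The CArG box, the sequence bound by SRF, was in 1.5% of windows and in none of those of the 7 genes searched. Tead1, Lats2 and Ankrd1 had no matched window and were not searched for either sequence. A match describes letters in a window and is not a measured binding site.

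The windows of Amotl2, Ccn1 and Ccn2 are shown because these targets differ in their change while all 3 carry the motif, which is in capitals. Ccn2 held 3 copies, starting 166, 101 and 92 bases before the start, a number reached in 0.0807% of all windows, and Ccn1 held 1 copy, 113 bases before the start. The windows lie at chr8:112182376-112182625 on the plus strand for Amotl2, at chr2:237225690-237225939 on the minus strand for Ccn1 and at chr1:22624615-22624864 on the minus strand for Ccn2, and each is written 5′ to 3′ as the gene reads.
Amotl2: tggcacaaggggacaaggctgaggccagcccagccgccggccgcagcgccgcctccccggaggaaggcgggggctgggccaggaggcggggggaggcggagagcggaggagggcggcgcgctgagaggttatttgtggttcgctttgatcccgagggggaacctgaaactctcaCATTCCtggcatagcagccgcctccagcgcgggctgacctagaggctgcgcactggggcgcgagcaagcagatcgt
Ccn1: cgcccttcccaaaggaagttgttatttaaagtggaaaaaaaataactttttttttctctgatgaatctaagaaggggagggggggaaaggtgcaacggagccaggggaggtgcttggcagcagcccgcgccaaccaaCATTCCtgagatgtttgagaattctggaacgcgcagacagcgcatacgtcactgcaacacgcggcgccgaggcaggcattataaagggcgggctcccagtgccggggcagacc
Ccn2: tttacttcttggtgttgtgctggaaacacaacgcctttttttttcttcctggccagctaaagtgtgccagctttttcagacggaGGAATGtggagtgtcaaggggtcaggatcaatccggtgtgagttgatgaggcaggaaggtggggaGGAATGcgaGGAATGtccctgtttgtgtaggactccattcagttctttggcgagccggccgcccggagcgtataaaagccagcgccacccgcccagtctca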

How the data were processed

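Values were the deposited TPM of 8 samples, made by the authors before deposition with HISAT2 alignment and StringTie quantification after removal of adapters, poly-N and low-quality reads (versions not given), and rounded to 2 decimals. The submitters' notes also name DESeq2 and the mouse build mm10, although the gene identifiers are rat. The table holds 31699 rows, 7629 of them without a symbol and 1139 of them assembled loci.

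The comparison was run on log2(TPM + 1) with limma 3.58.1 in R 4.3.3 (moderated with a trend, Benjamini-Hochberg over the 13103 genes whose mean reached 1 TPM), with tables made in Python 3.11.15 (pandas 2.3.3, numpy 2.4.6). The fold threshold is that of the study's methods. The code was tested on simulated data. Ratios within a sample were compared by an exact permutation test over 70 relabelings, whose smallest p is 0.029.

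Genes named were the 10 members, their relatives, Ccn1 and Ccn2, and, in each list, the called and the most abundant genes, except 1 called gene that is not reported here. Other genes were named after their values had been seen. The members and lists were chosen with earlier results of these data known. Alternatives were median-ratio scaling, quantile normalization, a pseudocount of 0.1, a minimum mean TPM of 5, no filter, moderation without a trend, a replicate block and leaving out each sample. Leaving samples out of the ratios was added after the data had been seen. Proteins and their location were not analysed here.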

Additional observations from a re-analysis of the deposited data

Results flagged for a closer look

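A sample was picked out when its gap to the nearest sample of its group was large against the range of that group (Dixon's test for 4 samples). Chance alone picks out about 1 in 20 groups, and 10 of 104 groups were picked out here. None was among the 10 members.

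In the samples labelled Lv-Ctrl, replicate 3 was low for Frmd6 (57.11 TPM), Ywhae (511.64 TPM), Filip1l (4.92 TPM) and Dcn (1352.44 TPM). Replicate 4 was high for Igfbp3 (97.21 TPM). In the samples labelled Lv-Piezo1, replicate 4 was high for Vgll4 (34.96 TPM) and low for Myl9 (514.93 TPM) and Acta2 (1283.86 TPM). Replicate 2 was low for Ccn2 (4467.79 TPM), and replicate 1 was high for Casq2 (24.92 TPM).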

How the results depend on the processing

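The depth of the samples is unknown, the labels do not give the isolation of each culture, and Piezo1 transcript was higher under the Lv-Piezo1 label. Over all alternatives, Tead3 stayed between 0.78 and 0.98, Tead1 between 0.27 and 0.49 and Amotl2 between 0.14 and 0.34 in log2 fold change. At an adjusted p below 0.05 in limma (Benjamini-Hochberg), Wwtr1 passed at -0.22 (median-ratio scaling) and -0.16 (quantile normalization), and Lats2 at -0.32 and -0.28. Amotl1 did not pass at 0.23 and 0.21 under these scalings, and at 0.39 both without a trend and without a filter. Leaving out a sample gave -0.28 to -0.0908 for Lats2 and 0.25 to 0.47 for Amotl1, which did not pass in 6 of 8 cases. Under median-ratio scaling Ccn1 turned from 0.05 to -0.13, Frmd6 from 0.03 to -0.15 and Taok2 from 0.06 to -0.11. Under quantile normalization Ccn1 passed in the other direction at 0.12, and Frmd6 (-0.06) and Taok2 (-0.04) did not pass.

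Counts below are at that adjusted p alone, with median-ratio scaling first and quantile normalization second. Members lower were 2 and 2 (0 to 1 when a sample was left out). Core kinases higher were 5 and 6, and lower 10 and 7 (0 to 3 when a sample was left out). Upstream regulators higher were 11 and 12, and lower 9 and 6 (2 to 5 when a sample was left out). Targets lower were 7 and 5 (3 to 5 when a sample was left out). Of all tested genes, 3499 were higher and 3822 lower with median-ratio scaling, and 3579 were lower with quantile normalization. With a minimum mean TPM of 5, 372 genes were called higher, and of the cofactors 0 were called lower and 1 was lower without the fold threshold.

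The log2 ratio difference was -0.17 to -0.12 for Wwtr1 to Yap1 and 0.47 to 0.60 for Tead3 to Tead1 when a sample was left out, without overlap of the groups. With 7 samples the permutation p was 0.0571 without any Lv-Piezo1 sample for Tead3 to Tead1 and without Lv-Piezo1 replicate 2 for Wwtr1 to Yap1.

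The samples share replicate numbers but did not correlate by number (-0.0303, -0.0576, -0.051 and -0.0124), and no sample correlated best with its own number. With a replicate block, 644 genes were called higher and 360 lower, and 4 members passed higher and 0 lower. Foxf2, at -0.16, no longer passed in the replicate block.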
